A study of Mus musculus with 3 samples.

Results

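The nuclear-encoded oxidative phosphorylation genes are the subunits of respiratory complexes I, III and IV and of the ATP synthase that the nucleus encodes, together with complex I assembly factors of the same naming series. They were chosen by name alone: every gene with a protein-coding transcript whose symbol begins with Nduf, Uqcr or Atp5, or with Cox followed by a digit from 4 to 8. The rule found 90 genes of the 55536 annotated genes that have a row in the gene tables. The symbol Atp5o belongs to 2 of these 90, a gene with counts and a second entry (ENSMUSG00000116933.1) at 0 counts in all 3 libraries.

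RNA came from the cytosolic fraction of C57BL/6J mouse macrophages grown from bone marrow and exposed for 30 minutes to 100 ng/ml Lipid A, the part of bacterial endotoxin that activates Toll-like receptor 4. Ribosomal RNA was depleted and all other RNA was sequenced (total RNA-seq) in 3 libraries of this 1 group, numbered replicates 1, 2 and 3 in the labels, which also record the same donor entry for all of them. Sex and age were not recorded, and no untreated, nuclear or later sample is part of the comparison, so the values below describe levels in stimulated cells and say nothing of induction. Whether the libraries came from separate cultures is not stated, and p-values therefore measure only the spread between these libraries, which may be technical.

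Oxidative phosphorylation passes electrons from NADH and succinate through complexes I to IV of the inner mitochondrial membrane to oxygen, and the proton gradient that this builds drives the ATP synthase. Apart from complex II, each of these machines combines subunits made from mitochondrial DNA with a larger number made from nuclear messenger RNAs, which are translated in the cytosol and imported. Macrophages are known for shifting between oxidative and glycolytic metabolism when they meet bacterial products.

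Levels are given as TPM (counts divided by effective transcript length and scaled to a total of 1000000 per library), the scale on which different genes can be compared. The 3 libraries held 23403552, 50435201 and 35785896 expected counts over genes. Nuclear protein-coding genes took 22.3%, 34.4% and 24.3% of all TPM in replicates 1, 2 and 3, so that a messenger RNA with an unchanged share of the messenger RNA pool has a higher deposited TPM in replicate 2. Values of 1 gene are therefore compared between libraries as CPM, counts per 1000000 after scaling of the library size by the trimmed mean of M-values (TMM), a scaling that assumes most genes are equal. All 10 macrophage markers examined were at 10 TPM or more. The summed TPM of 6 stromal markers was 22.4 in replicate 1 and at most 0.13 in the others, and the 4 markers of muscle and heart summed to at most 0.06 TPM, with Myh6 and Tnnt2 at 0. Markers of erythroid cells and megakaryocytes summed to 146, 273 and 206 TPM, with Hba-a1 and Hbb-bs at 0, and neutrophil markers to 11.5, 43.2 and 28.7 TPM, with 2 of 5 at 10 TPM or more. The part of other cells in the values below was not tested.

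Most of the 90 genes were well above the level of the typical nuclear gene. Of them, 82 reached 1 TPM (91.1%, against 42.7% of 22015 nuclear protein-coding genes), 71 reached 10 TPM (78.9% against 18%) and 12 reached 100 TPM (13.3% against 1.91%). The median of log2(TPM + 1) over the 90 genes was 5.01 ± 0.35 (SD, n = 3 libraries). The same median was 3.11 ± 0.30 over the nuclear protein-coding genes at 1 TPM or more, a set chosen for being expressed. Together the 90 genes received 0.337%, 0.428% and 0.343% of all counts, which is 3459, 4043 and 3544 TMM-scaled CPM. The sum was highest in replicate 2 on both scales.

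**Figure D1:**
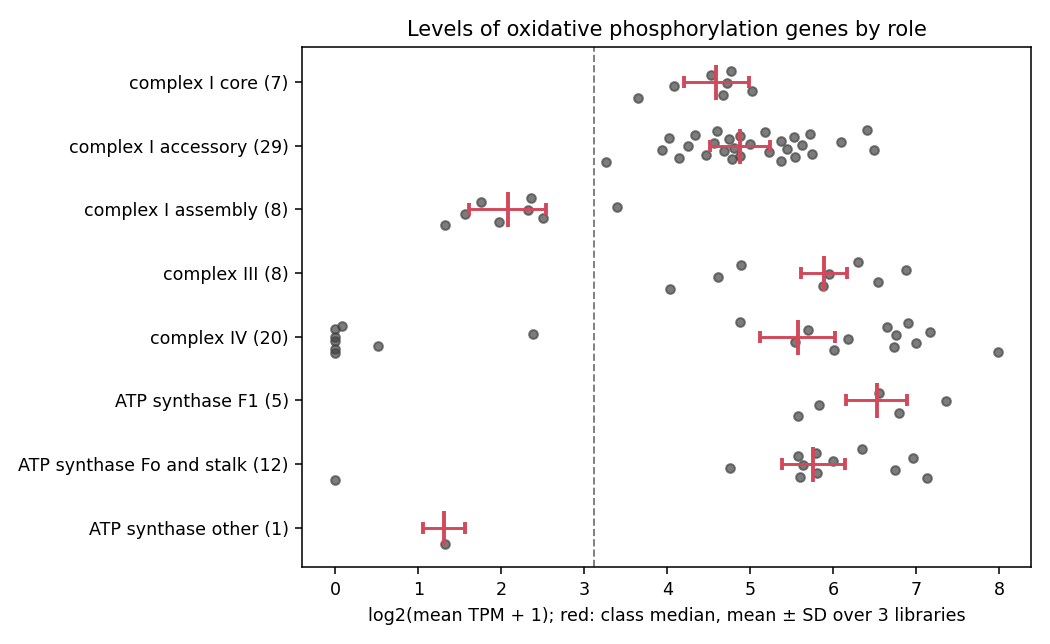
Mean TPM of each gene over 3 libraries on the log2(TPM + 1) scale (grey points), grouped by role with the number of genes in brackets; red marks give the class median as mean ± SD over libraries, and the dashed line is the median of nuclear protein-coding genes at 1 TPM or more. The 8 genes of complex IV left of the line are restricted isoforms, the 5 F1 subunits all lie right of the line, and 7 of the 8 complex I assembly factors lie left of it.

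The roles differed in level. The median of log2(TPM + 1) was highest for the F1 head of the ATP synthase, at 6.52 ± 0.36 over its 5 genes, and lowest among the structural classes for the complex I core, at 4.59 ± 0.39 over 7 genes. Between them lay complex III at 5.89 ± 0.28 (8 genes), the Fo membrane part and stalks of the ATP synthase at 5.76 ± 0.38 (12 genes), complex IV at 5.57 ± 0.45 (20 genes, 8 of them restricted isoforms) and the accessory subunits of complex I at 4.88 ± 0.36 (29 genes). The complex IV median is lowered by its restricted isoforms, most of them at or near 0. Leaving them out, its middle genes by mean TPM were Cox6a1 (105) and Cox7a2l (98.8), against Atp5a1 (92.8) in F1. The place of complex IV below F1 therefore rests on counting these isoforms. The 8 complex I assembly factors stood apart at 2.07 ± 0.47. With all genes of each class counted, F1 was highest within every library, followed by complex III and Fo, then complex IV, accessory, core and assembly genes. Complex III was above Fo in replicates 1 and 3, whereas in replicate 2 their medians were 6.19 and 6.20. Neighbouring structural classes differed by less than 1 SD of the spread between libraries, apart from F1 against complex III and complex IV against the accessory subunits. This SD includes the higher TPM of replicate 2, which these classes share. With TPM rescaled to nuclear protein-coding genes, accessory subunits were at 6.75 ± 0.06 and core at 6.46 ± 0.08. Complex III was then at 7.79 ± 0.07, Fo and stalks at 7.65 ± 0.12 and complex IV at 7.46 ± 0.15.

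Sequences around the start sites were compared next. The table of RefSeq promoters on GRCm38.p6, the build of the deposited files, covers 250 bases before to 50 after each start site and had an entry for 73 of the 90 genes. Searched on both strands, GCGCATGCG, the palindrome-like core bound by nuclear respiratory factor 1 (NRF1), was present in 10 of 73 (13.7%), against 1.95% of the 27025 genes in the table and 2.61% of its protein-coding genes. AAGATGGCG, a YY1 site, was present in 8 of 73 (11%, against 1.64% of all genes and 2.14% of protein-coding ones), and in 7 of these 8 it began after the start site, inside the transcribed part. The ETS site CCGGAAGT, read by GABPA among others, was found in 6.85% (against 4.31% and 5.69%), and AAGGTCA, which estrogen-related receptors bind, in 9.59% (against 5.38% and 4.73%). CCAAT was as common as elsewhere (43.8% against 41.1%). The TATA string TATAAA was in 9.59% (against 15.7%), counted anywhere in the window, so the share is not one of TATA boxes. The promoters held a median of 19 CG dinucleotides against 7 over all genes and 13 over protein-coding ones, and the NRF1 string itself contains CG, so base composition moves with that share and its part was not tested.

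The 4 runs that follow are 5′ to 3′ in the direction of transcription, stop before the first annotated exon base, and carry the matched string in capitals. Uqcr11, the gene with the most even counts between libraries, has an ETS string whose first base lies 66 bases before the start site, and an NRF1 string across the start site that lies beyond the printed run. Ndufaf4, a complex I assembly factor, has the NRF1 string in both orientations, overlapping by all but 1 base, from 113 bases before the start. Atp5g3, the highest of the 3 genes for the c subunit of the ATP synthase, has the receptor string in reverse orientation 52 bases before the start. Cox7b2, a testis isoform with 0 counts in all libraries, has none of the NRF1, YY1, ETS or receptor strings in its window. A reversed TATA string lies 221 bases before its start. Expressed genes such as Atp5b, Cox6b1 and Cox7c also lack the NRF1, YY1, ETS and receptor strings, so their absence does not set Cox7b2 apart. The TATA string was in 5 of 70 genes at 1 TPM or more and in 2 of 3 below.
Uqcr11 (chr10:80406831-80407071, minus strand): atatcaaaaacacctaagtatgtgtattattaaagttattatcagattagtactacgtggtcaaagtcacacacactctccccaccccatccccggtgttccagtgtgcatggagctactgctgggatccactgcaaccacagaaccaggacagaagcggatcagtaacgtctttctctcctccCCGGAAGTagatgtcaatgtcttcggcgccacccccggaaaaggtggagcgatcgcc
Ndufaf4 (chr4:24897833-24898082, plus strand): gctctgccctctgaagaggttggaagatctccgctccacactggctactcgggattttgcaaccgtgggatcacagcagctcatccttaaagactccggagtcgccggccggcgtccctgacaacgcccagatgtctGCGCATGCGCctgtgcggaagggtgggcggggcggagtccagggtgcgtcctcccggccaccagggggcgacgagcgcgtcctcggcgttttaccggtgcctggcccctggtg
Atp5g3 (chr2:73911327-73911576, minus strand): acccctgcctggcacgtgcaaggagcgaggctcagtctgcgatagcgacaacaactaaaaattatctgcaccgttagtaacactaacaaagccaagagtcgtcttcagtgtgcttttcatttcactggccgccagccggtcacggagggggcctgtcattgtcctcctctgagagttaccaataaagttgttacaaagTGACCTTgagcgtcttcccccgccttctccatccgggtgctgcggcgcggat
Cox7b2 (chr5:71548206-71548455, minus strand): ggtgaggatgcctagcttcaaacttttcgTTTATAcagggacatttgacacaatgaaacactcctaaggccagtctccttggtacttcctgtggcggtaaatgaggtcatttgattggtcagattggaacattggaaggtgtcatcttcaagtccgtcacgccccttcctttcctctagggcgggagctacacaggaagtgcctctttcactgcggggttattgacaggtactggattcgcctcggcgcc

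In complex I, the core subunits carry the flavin and the iron-sulfur clusters and are conserved from bacteria. The iron-sulfur protein gene Ndufs7 was at 19.8, 34.5 and 24.4 TPM in replicates 1, 2 and 3 (26.2 ± 7.5), and Ndufv2, which also carries an iron-sulfur cluster, was at 18.4, 36.4 and 21.01 (25.3 ± 9.74). Ndufv1, which binds FMN and NADH, was lowest of the core genes at 8.99, 13.8 and 11.8 TPM (11.5 ± 2.41). Replicate 2 was highest in TPM for each of these 3 genes. Per CPM, Ndufv1 had 25.4, 27.3 and 30.4, so its highest library was replicate 3.

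The accessory subunits surround this core and stabilise it. Ndufa1 (88.8 ± 39.9 TPM; 64.1, 135 and 67.6 in replicates 1, 2 and 3), Ndufa3 (83.7 ± 41.8; 66.4, 131 and 53.2) and Ndufb8 (67.5 ± 17.8; 58.0, 88.0 and 56.4) led the 29 genes. The lowest was Ndufb4, at 5.52, 15.0 and 5.22 TPM. Of the 29, 28 were at 10 TPM or more. Ndufab1, the mitochondrial acyl carrier protein, which also serves lipoic acid synthesis, was at 21.1 ± 7.21 TPM.

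The assembly factors, which build complex I and are not part of the finished enzyme, were low. Ndufaf8 was highest at 7.94, 9.93 and 10.6 TPM (9.50 ± 1.40), Ndufaf3 was at 4.68 ± 0.77 and Ndufaf1 at 4.12 ± 1.55, while Ndufaf6 was lowest at 1.11, 1.98 and 1.39 TPM (1.49 ± 0.44). None of the 8 reached 10 TPM on average, against 35 of 36 core and accessory genes. Other complex I assembly genes under different names were also low: all 7 with a row were below 10 TPM on average, from Tmem126b at 8.89 ± 2.72 and Foxred1 at 5.14 ± 1.34 down to Nubpl, an iron-sulfur carrier, at 0.723 ± 0.148.

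Complex III hands electrons from quinol to cytochrome c. Its hinge protein gene Uqcrh was highest at 89.4, 171 and 87.8 TPM (116 ± 47.5), followed by Uqcrb at 64.3, 145 and 66.5 (92.0 ± 46.1) and Uqcr11 at 64.2, 100.5 and 67.2 (77.3 ± 20.2). The core protein gene Uqcrc2 lowest at 11.7, 20.7 and 13.5 TPM (15.3 ± 4.77), and next came Uqcrfs1, the Rieske iron-sulfur protein, at 23.3 ± 6.51. The cytochrome c1 subunit of complex III and its acceptor cytochrome c fall outside the naming rule. Cyc1, for cytochrome c1, was at 11.0 ± 1.05 TPM and Cycs, somatic cytochrome c, at 5.96 ± 2.33, both below the lowest complex III gene chosen here, and the testis cytochrome c gene Cyct had 0 counts.

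Complex IV, cytochrome c oxidase, contained the highest of all 90 genes. Cox4i1 (ENSMUSG00000031818.12, chromosome 8, 120668222 to 120674207, plus strand), the regulatory subunit that binds ATP, was at 193, 356 and 208 TPM (252 ± 89.9). Cox6c followed at 94.4, 235 and 97.5 (142 ± 80.3) and Cox6b1, which bridges the dimer, at 92.2, 191 and 95.7 (126 ± 56.0). Replicate 2 was highest for all 3 and replicates 1 and 3 were close to each other. Cox7c (118 ± 69.6), Cox8a (107 ± 14.5) and Cox6a1 (105 ± 34.2) also exceeded 100 TPM. Ndufa4, named for complex I and now assigned to complex IV, was at 44.6, 98.5 and 46.5 TPM.

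**Figure D2:**
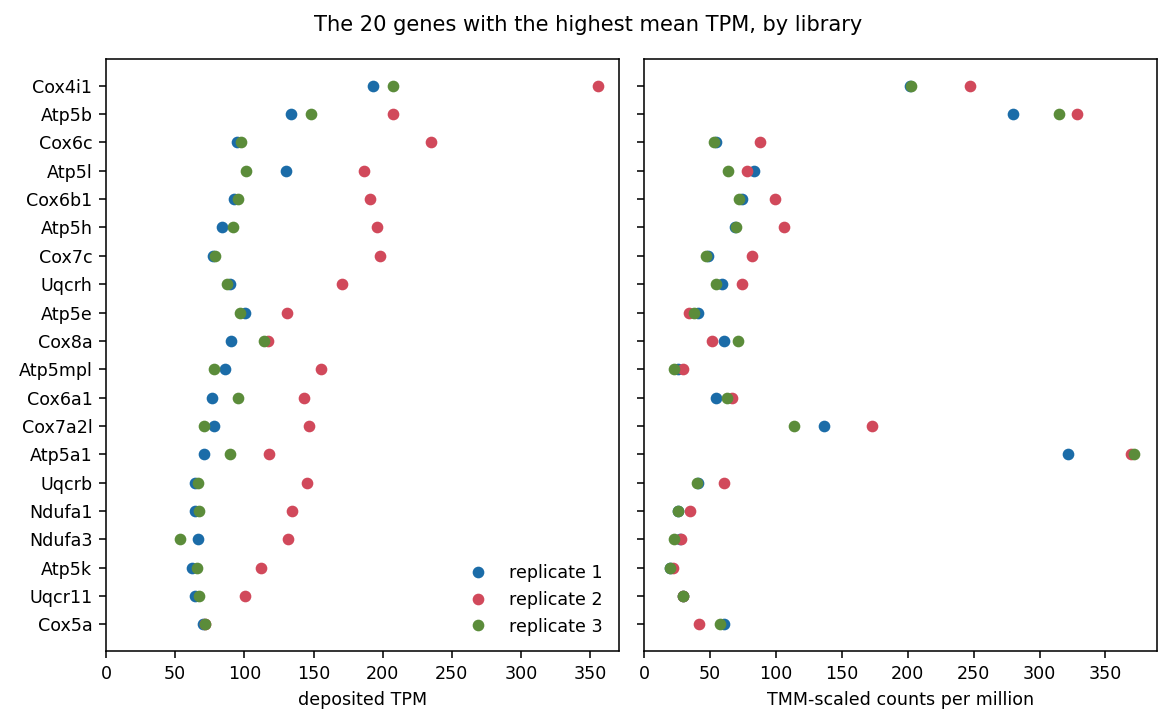
The 20 genes with the highest mean TPM, with 1 point per library, as deposited TPM (left) and as TMM-scaled CPM (right); both axes are linear and start at 0. Replicate 2 is highest in TPM for every gene shown, with Cox5a at 69.8, 71.9 and 71.5 TPM the most even, whereas in CPM replicate 2 is the lowest library for Cox5a, Cox8a and Atp5e.

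Several subunits of complex IV exist as a widely expressed and a restricted isoform, and in each pair the widely expressed one was higher in all 3 libraries. Cox4i2, Cox7b2, Cox8b and Cox8c had 0 counts in every library. Against a floor of 3 counts per library, Cox4i1 was at least 1515-fold higher than Cox4i2, the isoform of lung and hypoxia. By the same floor Cox7b was at least 117-fold above the testis isoform Cox7b2, and Cox8a at least 196-fold above the heart and muscle isoform Cox8b and 329-fold above the testis isoform Cox8c. The hypoxia-induced Ndufa4l2 was also at 0, with Ndufa4 at least 377-fold higher.

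The other restricted isoforms had few counts. Cox6a2, of heart and muscle, had 7, 10 and 19 counts (0.33, 0.30 and 0.64 TPM), and Cox6a1 was 149 to 476 times as high. Cox6b2, of testis, had 2 counts in replicate 1 and 0 in the others, a log2(TPM + 1) difference to Cox6b1 of 6.83 ± 0.67. Outside the naming rule, Cox6c2 was at 0, but it is annotated as a processed pseudogene, 97.0% identical to Cox6c, and not as a subunit gene. AA467197, a paralog of Ndufa4 also outside the rule, had 8, 36 and 8 counts, with Ndufa4 108 to 212 times as high. Cox7a1, the heart and muscle isoform, was the exception, at 32, 67 and 34 counts or 4.01, 5.66 and 2.92 TPM (4.2 ± 1.38), and Cox7a2 at 36.9, 62.6 and 37.2 TPM was only 9.20 to 12.8 times as high. All counts of Cox7a1 were assigned to a transcript of 393 bases, and the second deposited quantification gave a value of 1.54, 3.28 and 0.682 TPM, a log2 ratio to the first of -0.05 once centred on expressed nuclear genes. Muscle and heart markers were at or near 0 in the same libraries. Within libraries the log2(TPM + 1) difference of Cox7a2 over Cox7a1 was 3.15 ± 0.20, and that of the other 9 pairs ranged from 4.81 to 7.93. The exact two-sided sign-flip permutation test gave p = 0.25 for every pair, the smallest value that 3 libraries allow.

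**Figure D3:**
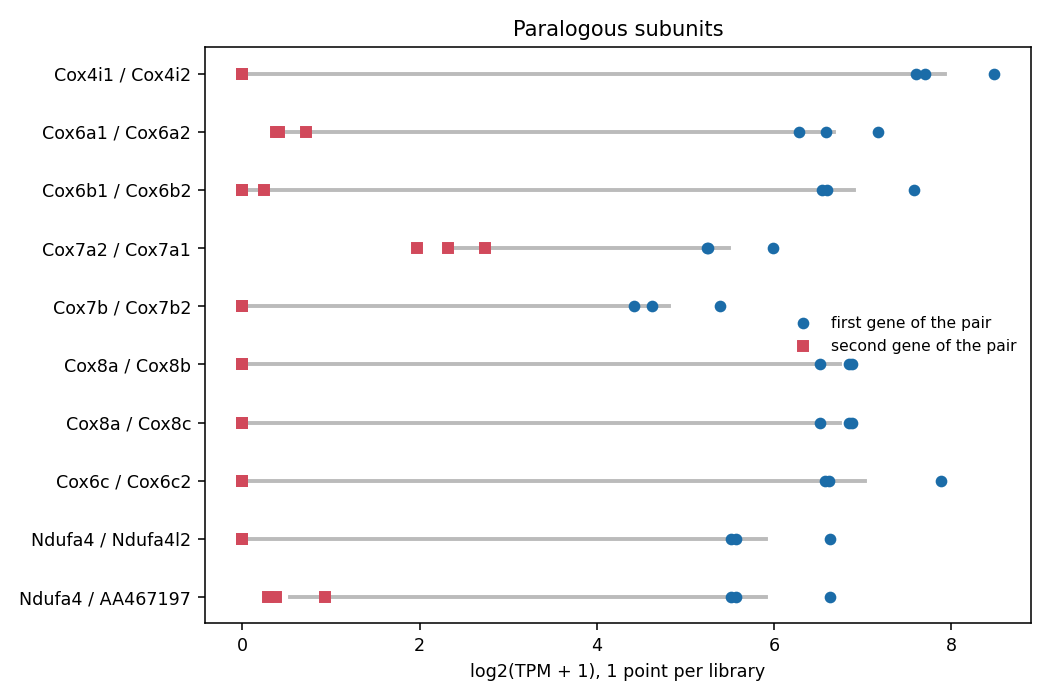
Levels of paralogous subunits as log2(TPM + 1), with 1 point per library for the first (blue circles) and second (red squares) gene of each pair and a grey line between their means. Second genes sit at or near 0 except Cox7a1, at 2.92 to 5.66 TPM, and in no pair do the libraries of the 2 genes overlap. The second gene Cox6c2 is annotated as a processed pseudogene.

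In the ATP synthase, the F1 head holds the catalytic sites. The catalytic beta subunit gene Atp5b (chromosome 10, 128083273 to 128090391, plus strand) was at 134, 208 and 148 TPM (163 ± 39.2). Its coding transcript held 54.5%, 61.6% and 62.0% of this, a mean of 97.5 TPM, below the coding transcript of Atp5e at 109 TPM. Most of the rest was assigned to non-coding transcripts of 478 and 343 bases. The alpha subunit gene Atp5a1 was at 70.7, 118 and 89.99 (92.8 ± 23.6), and Atp5e, for the small epsilon subunit, was at 101, 131 and 96.7 (109 ± 18.7). The central stalk genes Atp5c1 (55.8 ± 22.0) and Atp5d (34.7, 59.9 and 45.8 TPM, 46.8 ± 12.7) were lowest. By counts rather than per length, Atp5a1 led all 90 genes with 322, 369 and 372 CPM, with Atp5b next at 280, 329 and 315.

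In the membrane part, Atp5l (subunit g) was at 130, 187 and 102 TPM (139 ± 43.4), Atp5h (subunit d of the peripheral stalk) at 84.0, 196 and 91.9 (124 ± 62.4) and Atp5mpl at 85.7, 155 and 77.9 (106 ± 42.6). The c subunit, which forms the rotating ring, is encoded by 3 genes that give the same mature protein. Atp5g3 was at 53.6, 74.5 and 60.8 TPM (63.0 ± 10.7), Atp5g2 at 51.8, 63.6 and 48.1 (54.5 ± 8.08) and Atp5g1 at 23.1, 27.1 and 27.7 (26.0 ± 2.49). In the gene tables Atp5g1 was the lowest of the 3 in every library and Atp5g3 the highest. Atp5s, a coupling factor that is not a structural subunit, was at 1.05, 1.56 and 1.89 TPM.

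The level of Atp5g2 depended on how reads were shared with a copy. Gm10175 on chromosome 7, a transcribed processed pseudogene, matches the main Atp5g2 transcript at 100% identity over 88.2% of its length. In the gene tables Atp5g2 received 1222, 2344 and 1596 counts and the pseudogene 173, 802 and 202. The second quantification divided a similar sum the other way, giving Atp5g2 266, 556 and 155 counts and the pseudogene 82.2%, 83.0% and 91.8% of the sum. Centred on all expressed nuclear genes, the log2 ratio of the second to the first quantification was -2.68 ± 0.73 for Atp5g2 alone and 0.12 ± 0.01 for the pair summed. In that second table Atp5g1, at 8.74, 17.0 and 6.24 TPM, was above Atp5g2, at 3.97, 8.65 and 1.01 TPM, in every library, so the order of these genes reverses with the quantification. Of the 71 genes at 10 TPM or more, Atp5g2 was the only one whose 2 quantifications differed by more than 0.5 (1.41%, against 1.92% of 3959 nuclear protein-coding genes), and Cox7b (0.33) and Ndufab1 (0.31) came next.

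Copies of other genes were also found. With identity of at least 90% over at least 80% of the copy's own length, 35 of the 90 genes had such copies, 80 in all and 78 of them pseudogenes, and 6 copies reached 1 TPM. The copy Ndufb4c matched Ndufb4 at 100% and received 201, 666 and 311 counts beside 192, 825 and 253 for Ndufb4 itself, so the low level of Ndufb4 is uncertain. The copy Gm12338 matched Cox7c at 100% and received 30.4, 297 and 136 counts, which at its short length is listed as 154 TPM, above Cox7c, while all copies of Cox7c together held 2.85%, 6.57% and 7.96% of the joint counts. Exons of 33 genes overlap another gene, 29 of them on the opposite strand and 18 a gene at 1 TPM or more. Whether counting used the strand is not given in the sources used here, so reads of such partners, for example Atp5j and Gabpa with 397 shared bases, cannot be told apart with certainty.

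Transcript estimates separated a small set of genes from the rest. Coding transcripts held 90% or more of the gene's TPM in 62 of the 82 genes at 1 TPM or more (75.6%, against 71.9% of 9398 nuclear protein-coding genes). They held less than 50% in 7 genes (8.54%, against 4.64%), namely Ndufa5, Ndufs4, Atp5j, Ndufa3, Atp5f1, Ndufc1 and Ndufaf4. For Atp5j, coupling factor 6, transcripts annotated as retaining an intron held 55.9%, 76.1% and 55.3% in replicates 1, 2 and 3. For Ndufs4, an accessory subunit in which loss causes Leigh-like disease, transcripts annotated as targets of nonsense-mediated decay held 70.0%, 77.6% and 73.6%. For Ndufa3 the decay-annotated share was 56.0%, 77.2% and 44.8%, and for Atp5f1, the b subunit, it was 50.4%, 63.6% and 51.0%. Replicate 2 was highest in each of these 4 cases, but not in the rest of the 7 genes. The retained-intron share of Ndufc1 was 36.2%, 32.1% and 54.8%. Transcripts annotated only as processed held 65.4%, 46.7% and 57.7% in Ndufaf4 and 57.1%, 54.3% and 47.8% in Ndufa5. The shares are estimates, since transcripts of 1 gene share most reads.

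**Figure D4:**
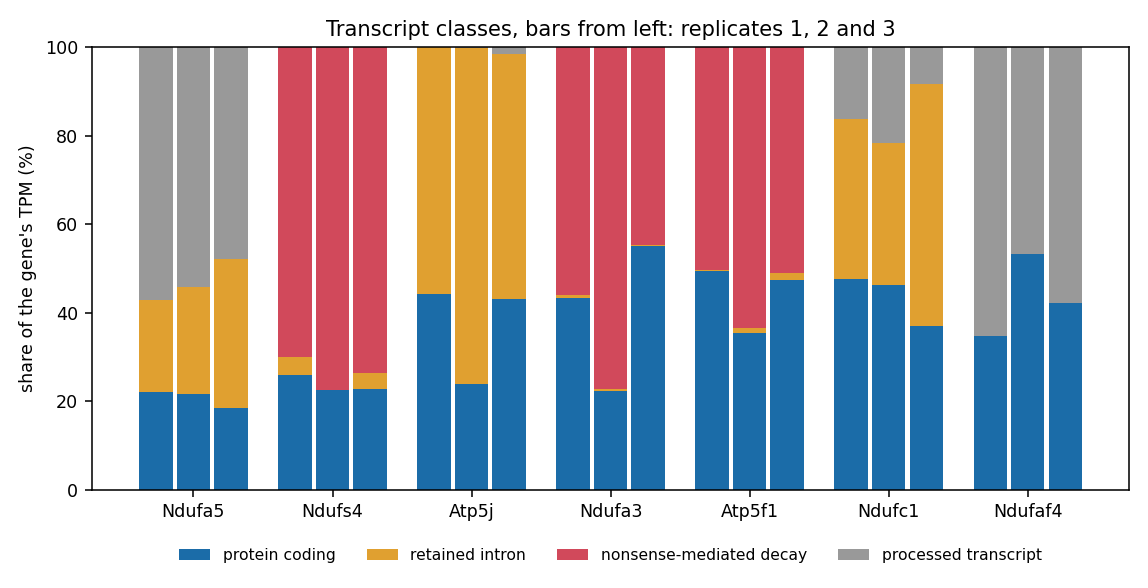
Share of each gene's TPM (percent) by annotated transcript class in the 7 genes whose coding transcripts hold under 50%, with a bar for each of replicates 1, 2 and 3 from left to right. Retained-intron transcripts lead Atp5j, decay-annotated ones lead Ndufs4, and the classes of Ndufa3 shift most between libraries.

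Between libraries, the counts of most genes differed by more than sampling noise, as they did for other expressed genes. Of the 83 genes whose counts averaged at least 10, 66 differed between libraries in a chi-square test that takes Poisson sampling at TMM-scaled depth as its null (adjusted p under 0.05 over all genes tested, Benjamini-Hochberg), which is 79.5% against 67.9% of all 13237 genes tested. Among tested nuclear protein-coding genes at 1 TPM or more the share was 75.9%, so the 83 genes are near that background. Without replicate 2, 26 of 83 passed (31.3%, against 33.4% of all genes). The differences were small: the highest library exceeded the lowest by more than 1.5 times in 12 of the 83 genes (14.5%, against 27.2% of all genes tested and 12.1% of the expressed nuclear ones). The median biological coefficient of variation was 14.7%, against 17.5% over all genes tested and 14.2% over expressed nuclear genes.

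Replicate 2 was the highest library in CPM for 49 of the 83 genes (59%, against 44.3% of all genes tested and 49.5% of the expressed nuclear genes). Replicate 1 was highest for 12 (14.5% against 26.2%) and replicate 3 for 22 (26.5% against 29.5%). The median deviation from a gene's own mean, on the log2 CPM scale, was -0.07, 0.12 and -0.06 in replicates 1, 2 and 3, against -0.02, 0.03 and -0.01 over all genes tested. Mitochondrial ribosomal protein genes deviated in the same libraries by -0.14, 0.22 and -0.08, and cytosolic ribosomal protein genes by 0.00, 0.26 and -0.27. Nuclear protein-coding genes of similar length were compared as well. With transcripts of 500 to 700 bases, 149 of 233 had their top CPM in replicate 2 and a median deviation there of 0.18. The genes described here had 18 of 32 and 0.13 in that range. From 700 to 1000 bases it was 380 of 615 and 0.14, against 10 of 19 and 0.17. Under 500 bases it was 37 of 83 and 0.14, against 7 of 10 and 0.10. From 1000 to 2000 bases it was 1604 of 3000 and 0.09, against 13 of 19 and 0.11. From 2000 bases it was 3217 of 7645 and 0.02, against 1 of 3 and 0.06. The part of length in the deviations was not tested. Replicate 2 was also the deepest library and the one with the largest messenger RNA share, and the part of either in these deviations was not tested.

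Of the 12 genes past 1.5-fold, Cox6a2 had the widest span (2.93-fold, on 7 to 19 counts), and the assembly factors Ndufaf6 (1.55-fold) and Ndufaf7 (1.54-fold) were among them. Of the structural subunits, Cox7c (chromosome 13, 86044816 to 86046904, minus strand) had 48.5, 82.0 and 46.5 CPM, a 1.76-fold span with an adjusted chi-square p of 9.9e-113. Cox6c had 54.0, 87.5 and 52.8 CPM (1.66-fold) and Atp5h 68.7, 106 and 69.8 (1.54-fold). In all 3, replicate 2 stood above 2 close values. Uqcrb (1.53-fold), Ndufs5 (1.53-fold) and Cox7a2l (1.52-fold) were also highest in replicate 2. Ndufb4 spanned 2.12-fold (8.41, 15.5 and 7.30 CPM), and 1.72-fold when its copy was added. Together with its copies, Cox7c spanned 1.76-fold.

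Some subunits went the other way. Cox5a, a subunit on the matrix side, had 60.3, 41.1 and 57.3 CPM and Cox8a had 60.1, 51.1 and 71.0. Atp5g1 (22.2, 17.8 and 23.4 CPM) and Ndufb2 (11.5, 8.30 and 11.1 CPM) were likewise lowest in replicate 2. In complex IV, Cox5a and Cox7c thus moved in opposite directions in the same library, with deviations in replicate 2 of -0.34 and 0.53. In the complex I core, 5 of 7 genes were highest in replicate 3 (29.5% of all genes tested and 27.9% of expressed nuclear genes). At the even end, Uqcr11 had 29.2, 29.4 and 29.1 CPM (1.01-fold, adjusted chi-square p of 0.96), and Ndufs3 and Ndufb5 spanned 1.04-fold each.

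The most dispersed genes by edgeR's gene-wise coefficient of variation were mostly those with few counts. Cox6a2 had 53.3% and Cox7a1 38.9%. The assembly factors Ndufaf6 (36.8%; 1.23, 1.82 and 1.90 CPM) and Ndufaf2 (29.7%; 2.41, 3.43 and 3.09 CPM) followed, neither passing the chi-square test. Ndufb4, at 30.7%, was the only one of the 5 above 5 CPM.

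**Figure D5:**
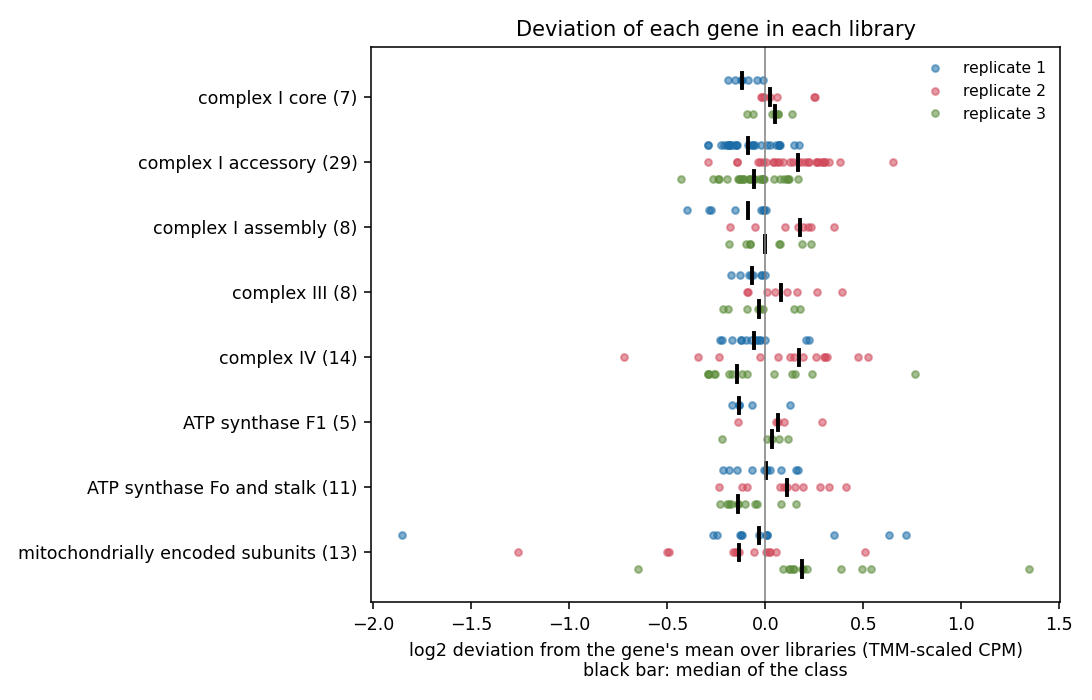
Deviation of each gene from its mean over libraries in log2 TMM-scaled CPM, by role and library (1 point per gene; black bars are class medians), for the 82 tested genes in classes of more than 1 gene and for the 13 mitochondrially encoded subunits. Most nuclear classes have their highest median in replicate 2 and the mitochondrially encoded subunits in replicate 3, at 0.19.

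The partners encoded in mitochondrial DNA were compared in the same way. Their 13 genes summed to 4599, 4457 and 5505 CPM, with medians of deviation of -0.03, -0.13 and 0.19. Replicate 3 was highest for 10 of 13 (29.5% of all genes tested) and replicate 2 for none (44.3%), and whether this differs from the nuclear genes was not tested. All 13 passed the chi-square test, which 67.9% of all genes tested passed. In TPM, mt-Atp8 (1468, 707 and 1304) and mt-Co1 (774, 1034 and 992) were highest and mt-Co2 was lowest (19.6, 19.3 and 8.71). By counts rather than per length, mt-Atp8 had only 67.5, 17.1 and 59.7 CPM, against 2084, 1901 and 2438 for mt-Co1. The genes mt-Atp8 and mt-Atp6 overlap and mt-Co3 ranged from 12.3 to 122 TPM, so single values of this set are less certain than the sum. RNA of mitochondria in a cytosolic fraction also depends on how the fraction was made, and that part was not tested.

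Other genes of the pathway were placed on the same scale. Complex II, wholly encoded in the nucleus, had a median of 5.37 ± 0.33 over 4 genes, with Sdha, the flavoprotein, at 34.6, 56.2 and 40.0 TPM (43.6 ± 11.3), Sdhb at 41.8 ± 12.6 and Sdhc lowest at 27.2 ± 9.48, and 3 of 4 passed the chi-square test, near the 75.9% of expressed nuclear genes. Atpif1, the inhibitor of ATP hydrolysis by the synthase, was at 128, 333 and 133 TPM (198 ± 117), above all 90 genes but Cox4i1, and spanned 82.4, 140 and 80.1 CPM. The 3 other ATP synthase helpers were between 5.04 (Tmem70) and 5.83 TPM (Atpaf1). Among 6 carriers and channels, all of which passed (75.9% of expressed nuclear genes), Slc25a5, an ADP/ATP carrier, was at 112 ± 18.2, Slc25a3, the phosphate carrier, at 105 ± 20.7 and Slc25a4 lowest at 28.2 ± 8.77.

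Assembly genes of the other complexes were low, as in complex I, with exceptions. For complex III, Uqcc2 was at 21.3 ± 7.82, Uqcc3 at 12.9 ± 6.25 and Lyrm7 lowest at 0.247 ± 0.070, and 5 of 6 passed the test (75.9% of expressed nuclear genes). For complex IV, the copper chaperone gene Cox17 was at 45.0, 104 and 49.5 TPM (66.1 ± 32.7) and Higd2a at 29.7 ± 11.6, against a class median of 2.82 ± 0.31, and Pet117 had 0 counts. Of its 20 tested genes 11 passed, and of the 7 complex I assembly genes under other names 3 passed, both below the 67.9% of all genes tested and the 75.9% of expressed nuclear genes. The test has less power at low counts, so these shares do not show steadier genes. Their median coefficients of variation were 18.4% and 19%, against 14.2% over expressed nuclear genes.

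Among 13 regulators of mitochondrial gene expression, none reached a mean of 10 TPM. Gabpa, the ETS factor named above, was highest at 6.40, 12.1 and 6.23 TPM (8.24 ± 3.34), followed by Yy1 at 7.96 ± 1.84. Nrf1 was at 4.18 ± 1.16 and Esrra, an estrogen-related receptor, at 6.88 ± 0.83. The coactivator gene Ppargc1a was lowest, with 1, 5 and 3 counts (0.017 ± 0.021 TPM), whereas Pprc1 of the same family was at 4.90 ± 0.21. Of the 12 tested, 9 passed the chi-square test, near the 75.9% of expressed nuclear genes.

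The genes were short, which bears on every TPM above. Their median transcript length was 687 bases, against 2142 bases over nuclear protein-coding genes. Across the 82 genes at 1 TPM or more, Spearman's rho of length was -0.51 with TPM and 0.16 with CPM, and across 9403 nuclear protein-coding genes it was -0.14 and 0.37. These relations are across genes of the same libraries, which are not independent replicates. Over nuclear protein-coding genes longer than 1000 bases, the median excess of length over effective length was 224, 240 and 212 bases in replicates 1, 2 and 3. Most of the genes described here are shorter than that. The effective length of Cox7a1 was 171, 157 and 182 bases.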

How the data were processed

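Libraries of cytosolic RNA were made without ribosomal RNA from 1 µg of input and sized to 250 to 400 bases, per the labels' protocols. The authors deposited, for each library, a gene table and 2 transcript tables on mm10 with GENCODE M21, per the deposited readme files. Which aligner and quantifiers were run, and whether strand was used, was not given in the sources used here. The deposited expected counts (and the estimated counts of the second transcript table) are reads per feature, not normalized, with shared reads divided by an estimator. The deposited TPM values are scaled over all rows of a table. The deposited percent column gives the portion of gene TPM in a transcript, and the authors' other columns give lengths, effective lengths and the posterior spread of counts. Rows without a gene in the annotation were left out.

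Members and gene lists were chosen with earlier results of these data known. Expected counts were rounded to whole numbers. Library sizes were scaled by TMM (edgeR 4.0.16, R 4.3.3). Counts of genes with a mean of 10 or more were tested for dispersion beyond Poisson (chi-square, Benjamini-Hochberg at 0.05 over 13237 genes, scipy 1.17.1). On Poisson counts simulated for those 13237 genes, with 200 changed in 1 library, 70% of 1.5-fold and 97% of 3-fold changes were recovered. Of the unchanged genes 0.084% were called. Poisson sampling is the null of the test, so this rate does not say how the test behaves on counts with more spread. The coefficient of variation came from edgeR's gene-wise dispersion without groups, and log2 CPM used a prior count of 0.5. A count of 0 allows 3 counts, or 0.128, 0.0595 and 0.0838 CPM of library totals in replicates 1, 2 and 3; these floors reflect counting error alone, because PCR copies are not told from molecules. Replicate 2, the deepest, has the smallest counting error.

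Copies of each gene's main coding transcript were sought with BLASTN among all annotated transcripts, at 90% identity over 80% of the query (3 genes had one) and, chosen after seeing the data, over 80% of the copy. Full values are given for the 3 highest and the lowest gene of each role (1 gene that the rule names is not reported here), for paralog pairs, the 5 most dispersed genes, the 3 with the largest difference between quantifications, and the 2 highest and the lowest of each other list. Genes singled out for their shift between libraries, for their transcript shares or copies, and the 4 printed promoters were chosen after their values were seen. Alternatives were DESeq2 1.42.0 size factors, library totals, other filters, pseudocounts and prior counts, the second transcript table, rescaled TPM and leaving out each library.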

Additional observations from a re-analysis of the deposited data

How the results depend on the processing

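Alternatives moved the absolute levels and kept the order of the lowest classes. With the second transcript table the median of log2(TPM + 1) over the 90 genes was 3.70; rescaled to nuclear protein-coding genes it was 6.89. By role, in the same order of second table and rescaled TPM, it was 5.11 and 8.43 for F1, 4.28 and 7.65 for Fo and stalks, 3.61 and 6.75 for accessory, 3.41 and 6.46 for core, 1.26 and 3.69 for assembly, 4.51 and 7.79 for complex III, 4.31 and 7.46 for complex IV, and 0.67 and 2.71 (0.64 with a pseudocount of 0.1) for Atp5s. With the restricted isoforms of complex IV counted, F1 was highest in both. Apart from Atp5s, assembly, core and accessory genes were lowest in both, and complex IV passed Fo in the second table. Without replicate 1, 58 of 83 genes passed the between-library test (69.9%, against 56.7% of all genes tested). Without replicate 3, 52 of 82 passed (63.4% against 53.0%), and without replicate 2, 26 of 83 (31.3% against 33.4%). The rule of a 1.5-fold span was met by 12 of 83 genes (14.5%, against 27.2% of all genes tested). Genes highest in replicate 1 fell to 7 with library totals and 7 with the second table, and those highest in replicate 3 to 11 and 13. Of the other settings of these summaries, 71 stayed within 1 SD or, for counts, within 1.5 times. For the levels of 38 single genes, 72 of 190 settings moved by more than 1 SD, 38 with rescaled TPM and 34 with the second table. The second table reversed the order of Atp5g1 and Atp5g2. A pseudocount of 0.1 kept the direction of the pair differences but raised Cox4i1 over Cox4i2 from 7.93 to 11.24 and Cox7b over Cox7b2 from 4.81 to 8.09. Rescaling of class medians and scaling to nuclear protein-coding counts were added after seeing the data. No paired analysis was possible because there is 1 group. With 1 group, no comparison between conditions can be had, and the sign-flip test on 3 libraries cannot go below 0.25.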
